A study of Mus musculus with 7 samples.

Results

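The small leucine-rich proteoglycans described here are 8 genes, Lum, Dcn, Bgn, Fmod, Ogn, Aspn, Prelp and Podn, taken by symbol from a table of 22173 mouse genes. All 8 were found, and all 8 had a mean of at least 1 FPKM (fragments counted per gene, divided by transcript length and sequencing depth) over the libraries, which was the condition for testing. Messenger RNA was sequenced from whole mouse spleens into which hepatocytes had been transplanted 30 days earlier. The spleens came from a control group given phosphate-buffered saline (PBS, 3 libraries) and a group remodelled beforehand by repeated injection of a biomaterial named sHA-X (4 libraries). Both groups received hepatocytes, so neither shows a spleen without a transplant. The sources used here do not give the strain, sex or age of the mice, nor whether each library is 1 animal. The p-values therefore measure only the spread between these libraries, which may be technical.

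Small leucine-rich proteoglycans are secreted proteins with a curved core of leucine-rich repeats, most of which carry chondroitin, dermatan or keratan sulfate chains. They bind collagen fibrils and set fibril spacing and width, and several of them bind transforming growth factor-beta (TGF-beta) and hold it in the matrix. Fibroblasts are their main source in most connective tissues, and in the spleen collagen lies in the capsule, the trabeculae and around the vessels. The family is divided into classes by sequence. Decorin, biglycan and asporin are class I, lumican, fibromodulin and PRELP class II, osteoglycin class III and podocan class V.

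Depth was even, with between 29543963 and 37141978 whole reads recovered per library from the steps of the FPKM values. Spleen markers were present in all libraries, among them the spleen mesenchyme transcription factor Tlx1 (8.04 to 9.61 FPKM). Some libraries carried RNA of other tissues. The summed FPKM of 8 pancreatic acinar genes was 862.1 in PBS replicate 2 and at most 0.15 elsewhere, and in the other libraries Ctrb1 and Cel were at 0. That of 8 skeletal muscle genes was 183.6 in sHA-X replicate 2 and at most 10.2 elsewhere. In that library 6 adipocyte genes summed to 42.7 FPKM (at most 10.3 elsewhere) and 8 mesothelial genes to 47.7 FPKM (11.1 to 29.4 elsewhere). The hepatocyte genes summed to 648.3 and 668.6 FPKM in sHA-X replicates 3 and 4, against 1.97 to 20.4 FPKM elsewhere. The tests of the 8 genes and of 48 other named genes were therefore repeated without PBS replicate 2 and sHA-X replicate 2. The counts per gene list, the comparisons of gene pairs and the shares of the summed FPKM were not repeated.

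Of the 8 proteoglycan genes, 7 rose in sHA-X spleens, none fell, and Prelp did not pass the test (limma on log2(FPKM + 1), adjusted p under 0.05 over 11920 genes). By the same rule 9.30% of all tested genes were higher, 5.03% lower and 14.3% changed in either direction. These shares are a background and not a test, since the 8 genes were chosen with earlier results of these data known. Lum, among the 7, passed the filter only through its sHA-X values. For the same 7 genes every sHA-X library lay above every PBS library, which held for 17.2% of tested genes. The median log2 change of the 8 was 1.10, and that of all tested genes 0.03. In bulk tissue, more cells of a type and more RNA per cell cannot be told apart. Lum, Dcn, Fmod and Aspn remained called without both second libraries, where the count fell to 4, while Bgn, Ogn and Podn did not pass there.

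**Figure D1:**
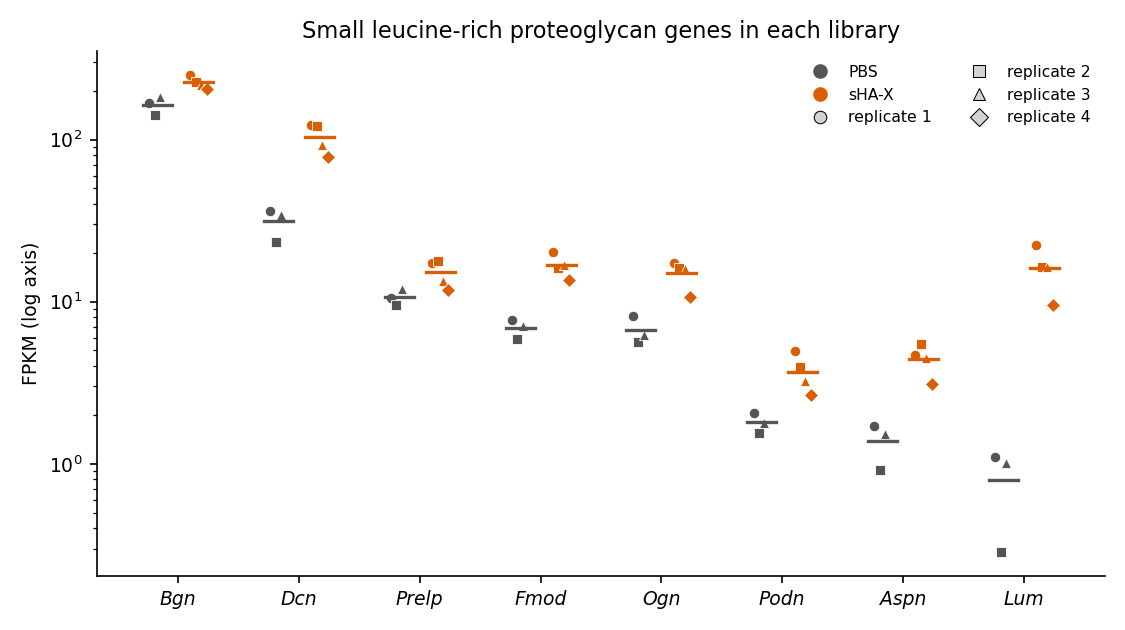
FPKM of the 8 genes in each of the 3 PBS and 4 sHA-X libraries on a log axis, ordered by the PBS mean, with 1 symbol per library and a bar at the group mean. The groups are apart for every gene except Prelp, and Lum moves from the lowest gene in PBS (mean 0.796 FPKM) to the level of Fmod and Ogn (mean 16.1 FPKM).

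Among class I genes, Dcn encodes decorin, which coats collagen fibrils and binds TGF-beta (NCBI gene 13179, chromosome 10, 97479500 to 97518163, GRCm38). It stood at 36.1, 23.3 and 34.4 FPKM in PBS replicates 1 to 3 and at 122.4, 120.7, 91.9 and 78.2 FPKM in sHA-X replicates 1 to 4. The lowest sHA-X library was thus well above the highest PBS library. The means were 31.3 ± 6.97 FPKM (SD, n = 3) and 103.3 ± 21.8 FPKM (SD, n = 4), a ratio of 3.30 and a log2 change of 1.69 (SE 0.22, limma adjusted p = 0.0047).

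Bgn encodes biglycan, which carries a pair of glycosaminoglycan chains and, when released from matrix, activates Toll-like receptors 2 and 4 (NCBI gene 12111, chromosome X, 73483601 to 73495936). It was the most abundant of the 8 in every library, with 167.6, 142.2 and 183.5 FPKM in PBS and 251.5, 227.1, 217.7 and 205.0 FPKM in sHA-X. The groups did not overlap, but the gap between them was narrow. The ratio of means was 1.37, with a log2 change of 0.46 (SE 0.10, limma adjusted p = 0.022). Bgn did not pass when PBS replicate 1 was left out (limma adjusted p = 0.071), nor when PBS replicate 2 (0.054), the first (0.053) or the second sHA-X library (0.052) was. It did not pass without both second libraries (0.11).

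Aspn encodes asporin, a collagen and TGF-beta binding protein with a run of aspartate residues (NCBI gene 66695, chromosome 13, 49544443 to 49567565). It was at 1.72, 0.917 and 1.52 FPKM in PBS and at 4.71, 5.51, 4.48 and 3.11 FPKM in sHA-X, resting on 69 to 130 and 273 to 385 reads per library. All 4 sHA-X libraries were above the PBS range. The log2 change was 1.19 (SE 0.17, limma adjusted p = 0.0044), and the call was kept in all 16 alternatives in which the gene was tested.

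Among class II genes, Lum showed the largest difference of the 8. Lumican carries keratan sulfate and regulates collagen fibril assembly. It is NCBI gene 17022 on chromosome 10, 97565501 to 97572703. Reads of Lum numbered 73, 19 and 70 in PBS (1.09, 0.286 and 1.01 FPKM) and 1475, 1013, 1129 and 737 in sHA-X (22.3, 16.5, 16.3 and 9.52 FPKM). The lowest sHA-X value was several times the highest PBS value. The PBS mean was under 1 FPKM, so Lum entered the test only through its sHA-X values. The means were 0.796 ± 0.443 FPKM (SD, n = 3) and 16.1 ± 5.21 FPKM (SD, n = 4), with a log2 change of 3.23 (SE 0.30, limma adjusted p = 0.0018). The log2 change of Lum lay between 2.98 and 4.28 over the 17 alternatives, and it was called in each of them.

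Fmod encodes fibromodulin, which binds collagen near the lumican site and also binds TGF-beta (NCBI gene 14264, chromosome 1, 134037254 to 134048280). It was at 7.71, 5.88 and 7.12 FPKM in PBS and 20.2, 16.1, 16.9 and 13.6 FPKM in sHA-X. The groups were well apart, with means of 6.90 ± 0.94 FPKM (SD, n = 3) and 16.7 ± 2.74 FPKM (SD, n = 4). The log2 change was 1.16 (SE 0.13, limma adjusted p = 0.0015), and it was called in all 17 alternatives.

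Prelp encodes a heparin-binding member thought to anchor basement membranes to collagen (NCBI gene 116847, chromosome 1, 133910304 to 133930102). It was at 10.5, 9.50 and 11.9 FPKM in PBS and 17.4, 17.9, 13.4 and 11.9 FPKM in sHA-X. Only sHA-X replicate 4 (11.88 FPKM, against 11.89 in PBS replicate 3) overlapped the PBS range. The log2 change was 0.46 (SE 0.15, limma adjusted p = 0.075), close in size to that of Bgn. The gene was called with array weights (limma adjusted p = 0.0037) and without sHA-X replicate 4 (0.034), and not in the 15 other alternatives. The array weights had not converged, and that fit called 5327 genes, against 1708 in the main fit. An antisense gene, Gm15851, shares 350 of the 3615 exon bases of Prelp in the GENCODE annotation, and reads of the 2 strands cannot be told apart here.

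Ogn, of class III, encodes osteoglycin, also called mimecan, a small keratan sulfate proteoglycan of connective tissue (NCBI gene 18295, chromosome 13, 49608015 to 49624501). It was at 8.19, 5.63 and 6.25 FPKM in PBS and 17.2, 16.0, 15.9 and 10.7 FPKM in sHA-X. The groups did not overlap, and 3 of the 4 sHA-X libraries lay close together above the other one. The log2 change was 1.05 (SE 0.18, limma adjusted p = 0.0096), and the adjusted p was 0.087 without both second libraries.

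Podn, of class V, encodes podocan, a collagen-binding protein known from the arterial wall and the kidney (NCBI gene 242608, chromosome 4, 108014793 to 108031954). It was at 2.07, 1.55 and 1.80 FPKM in PBS and 4.95, 3.95, 3.25 and 2.66 FPKM in sHA-X. The lowest sHA-X library was above the highest PBS library. The log2 change was 0.73 (SE 0.16, limma adjusted p = 0.020). Podn did not pass when PBS replicate 1 (limma adjusted p = 0.053), PBS replicate 2 (0.068) or the second sHA-X library (0.052) was left out, nor without both second libraries (0.14).

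The 8 genes did not rise by the same factor. For each of the 28 pairs the log2 ratio of the 2 FPKM values was compared between groups by an exact permutation test on the absolute difference (two-sided, 35 splits, smallest possible p = 0.0286), adjusted over the 28 pairs. A total of 18 pairs reached that smallest p (adjusted p = 0.044). The pairs share genes and libraries, so they are not independent. Their adjusted p follows from how many pairs reached the smallest p, and no pair could have passed alone. Lum, whose PBS mean was under 1 FPKM, rose more than each of the 7 others by this test. Its ratio to Dcn was 0.0123 to 0.0303 in PBS and 0.122 to 0.182 in sHA-X. Dcn rose more than Bgn, from 0.164 to 0.216 times the Bgn level in PBS to 0.382 to 0.531 times in sHA-X. It also rose more than Fmod, Prelp and Podn. Bgn rose less than Dcn, Lum, Fmod and Aspn. The ratio of Dcn to Aspn was 21.1 to 25.4 in PBS and 20.5 to 26.0 in sHA-X, a difference of 0.02 on the log2 scale (exact permutation p = 0.91). That of Bgn to Prelp was 15.0 to 16.0 and 12.7 to 17.3 (exact permutation p = 0.80). For these pairs the ranges overlapped, which does not show that the genes changed alike.

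The make-up of the family's transcripts shifted with these unequal changes. FPKM is scaled to length, so levels of different genes can be set side by side. In PBS the 8 genes summed to 235.0, 189.3 and 247.5 FPKM. In sHA-X they summed to 460.6, 423.7, 379.9 and 334.7 FPKM. Bgn made up 73.5% ± 1.99 of the sum in PBS (SD, n = 3) and 56.7% ± 3.42 in sHA-X (SD, n = 4). Dcn made up 13.9% ± 1.54 and 25.7% ± 2.32. The share of Lum went from 0.34% ± 0.17 to 3.96% ± 0.84. Prelp, the third most abundant gene in every PBS library, took 4.46% to 5.02% of the sum there and 3.54% to 4.22% in sHA-X. Lum was the lowest of the 8 in every PBS library and between the third and the sixth in sHA-X.

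**Figure D2:**
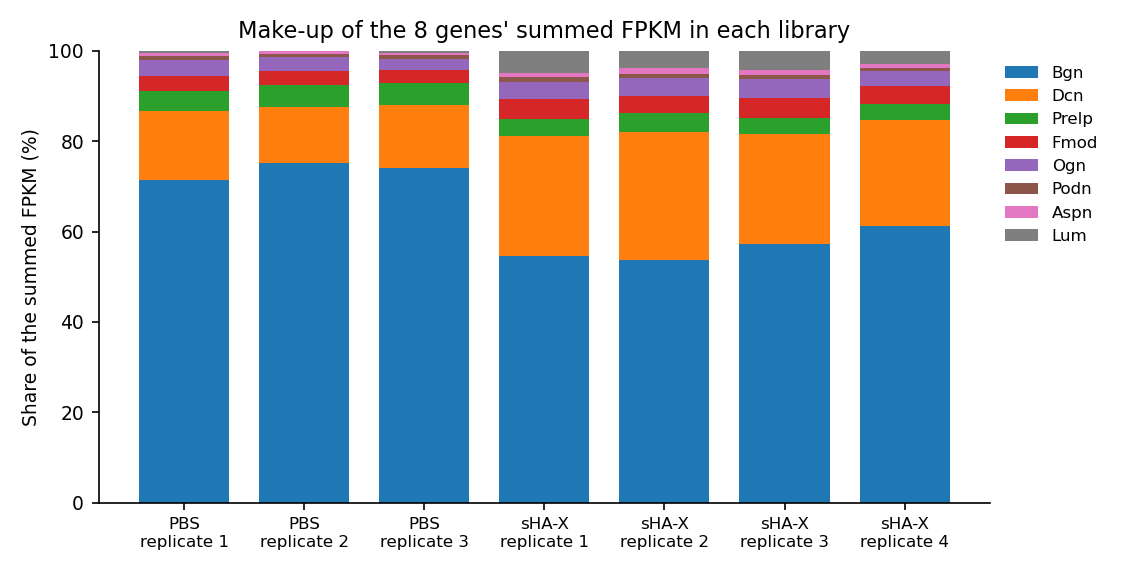
Share (%) of each of the 8 genes in their summed FPKM, 1 stacked bar per library. Bgn takes 71.3% to 75.2% in PBS and 53.6% to 61.2% in sHA-X, and the Dcn and Lum segments are larger in all 4 sHA-X libraries.

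Within each group the 8 genes were high or low in the same libraries. PBS replicate 2 had the lowest value of the PBS group for all 8 genes, and sHA-X replicate 4 the lowest of the sHA-X group for all 8. The share of all tested genes with these positions was not counted. PBS replicate 2 also had the lowest PBS sums of collagen and matrix assembly genes (209.9 FPKM), chain synthesis genes (241.5 FPKM) and B cell genes (1591 FPKM). Its low position was thus not particular to the 8 genes. The sums of acinar, skeletal muscle and hepatocyte genes were highest there among PBS libraries. sHA-X replicate 1 had the highest sHA-X value for 6 of them, and sHA-X replicate 2 for Aspn and Prelp. Deviations from the group means, on the log2(FPKM + 1) scale, correlated positively for all 28 pairs of genes over the 7 libraries, with Pearson's r between 0.61 (Bgn and Ogn) and 0.97 (Lum and Fmod). The points of these correlations share their libraries, and no test was made of them. PBS replicate 2, which held the acinar RNA, was thus the lowest PBS library. Without both second libraries the log2 change of Lum was 2.98, against 3.23 with all libraries, and that of Dcn 1.42, against 1.69. The part of the acinar RNA in this was not tested. sHA-X replicates 3 and 4 held similar summed hepatocyte levels, and their summed proteoglycan levels were 379.9 and 334.7 FPKM.

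**Figure D3:**
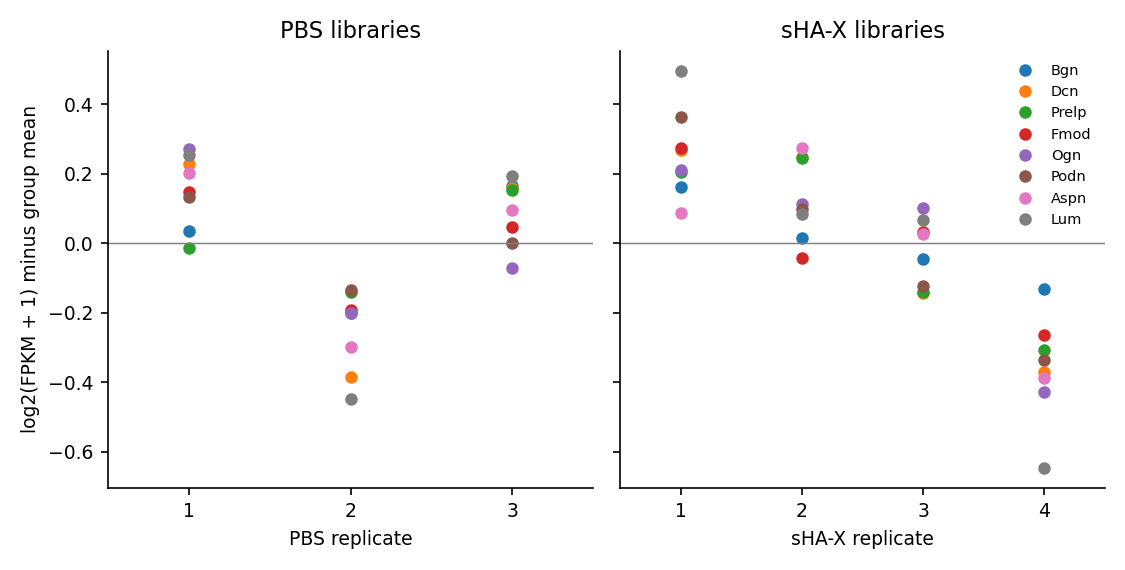
Deviation of each gene's log2(FPKM + 1) from its group mean, by replicate, for the 3 PBS libraries (left) and 4 sHA-X libraries (right), 1 colour per gene. All 8 points of PBS replicate 2 and of sHA-X replicate 4 lie below 0 and below those of the same gene in the other libraries of the group.

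Markers of fibroblasts and other stromal cells were set beside these values. For the counts below, 9.30% of all tested genes rose and 5.03% fell. Of 10 adventitial fibroblast genes, cells that surround vessels and line the capsule, 6 rose, and none fell. Their summed FPKM was 148.5 to 208.1 in PBS and 262.6 to 340.8 in sHA-X, lowest in PBS replicate 2 and highest in sHA-X replicate 1. None of the 10 was at 0. Pi16 went from 2.25 ± 0.31 FPKM (n = 3) to 9.21 ± 1.66 FPKM (n = 4), and Sfrp2, a secreted Wnt modulator, from 0.0869 ± 0.0387 to 4.06 ± 0.71 FPKM. Sfrp2 had 3 to 8 reads per PBS library and entered the test only through its sHA-X values. Of 10 fibroblastic reticular cell genes, which include the spleen mesenchyme gene Tlx1, Pdpn and Pdgfrb rose, Cxcl13 fell and 7 did not pass. The sums overlapped (500.8 to 625.3 FPKM in PBS and 408.1 to 596.7 FPKM in sHA-X). The calls of Pdgfrb and Cxcl13 were lost in each of the 7 and in 5 of the 7 fits that left out 1 library, and that of Pdpn without PBS replicate 1 or 2. No smooth muscle gene of 6 tested passed (sums of 149.8 to 177.2 and 176.6 to 196.3 FPKM). Nor did any of the 6 tested of 8 mesothelial genes. The sums of all 8 were 16.2 to 29.4 FPKM in PBS and 11.1 to 47.7 FPKM in sHA-X. Of 6 genes of hepatic stellate cells, which could come with a hepatocyte preparation, Cygb and Rgs5 rose and 4 did not pass. The sums were 14.8 to 16.2 FPKM in PBS and 23.0 to 27.7 FPKM in sHA-X. In sHA-X replicates 1 to 4 the sum was 27.7, 26.6, 23.0 and 26.9 FPKM, and replicates 3 and 4 held the most hepatocyte RNA. Rgs5 did not pass without both second libraries (limma adjusted p = 0.053). Lymphocyte markers moved the other way. Of 6 B cell genes 5 fell, with sums of 1591 to 1890 FPKM in PBS and 1077 to 1233 FPKM in sHA-X, which did not overlap. Of 5 tested T cell genes only Cd8a fell, and it did not pass in 5 of the 7 fits without 1 library. The T cell sums overlapped (161.3 to 217.2 FPKM in PBS and 131.8 to 163.0 FPKM in sHA-X). FPKM is a relative scale. The part of any of these cell types in the rise of the proteoglycan genes was not tested.

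Most of the 8 genes lie in clusters with other family members, and not all of these neighbours were detected or passed the test. On chromosome 10, Dcn and Lum lie 47.3 kb apart and are followed by Kera and Epyc, the genes of keratocan and epiphycan. Kera was at 0 in every library and Epyc had 1 read in each of sHA-X replicates 3 and 4. On chromosome 13 the order is Ecm2, Aspn, Omd and Ogn. Aspn and Ogn rose, and Omd, the gene of osteomodulin between them, had 5 to 44 reads per library with overlapping groups. Ecm2 did not pass (0.897 ± 0.237 FPKM in PBS, n = 3, and 1.31 ± 0.45 FPKM in sHA-X, n = 4, limma adjusted p = 0.31). The opposite-strand gene Cenpp spans these 4 genes but shares no exon base with Ogn and 7 with Aspn, and it was at 0.66 to 2.05 FPKM in PBS and 0.94 to 1.56 FPKM in sHA-X. On chromosome 1, Optc and Prelp are neighbours and Fmod lies 107.2 kb from Prelp. Fmod rose, Prelp did not pass, and Optc had at most 6 reads.

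The sequence before the transcription start was available for Aspn, Bgn, Fmod, Ogn, Podn and Prelp, 6 of the 8 genes, from RefSeq (GRCm38.p6). Windows of 250 bases are shown for the cluster neighbours Aspn and Ogn, which both rose, for Fmod and Prelp, of which the first rose, and for Bgn, the most abundant gene. They are written 5′ to 3′ on the gene's strand and end at the start. Capitals mark matches to 6 motifs on either strand, and overlapping matches run together. The TATA box was searched as TATAAA. For the AP-1 factors the letters were TGANTCA. SMAD proteins, which carry the TGF-beta signal, were represented by CAGAC. The GC box was taken as GGGCGG. For basic helix-loop-helix factors the E-box CANNTG was used. The TEAD motif was searched as GGAATG.
Aspn, chr13:49544193-49544442, plus strand: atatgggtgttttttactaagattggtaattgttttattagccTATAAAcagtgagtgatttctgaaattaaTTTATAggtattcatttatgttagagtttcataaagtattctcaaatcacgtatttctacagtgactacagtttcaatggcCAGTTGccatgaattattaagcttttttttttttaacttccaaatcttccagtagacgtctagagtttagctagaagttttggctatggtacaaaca
Ogn, chr13:49607765-49608014, plus strand: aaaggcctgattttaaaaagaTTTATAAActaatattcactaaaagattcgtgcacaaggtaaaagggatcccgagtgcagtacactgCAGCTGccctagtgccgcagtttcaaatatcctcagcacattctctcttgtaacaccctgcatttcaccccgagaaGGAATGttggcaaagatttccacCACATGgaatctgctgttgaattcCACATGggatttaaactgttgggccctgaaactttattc
Fmod, chr1:134037004-134037253, plus strand: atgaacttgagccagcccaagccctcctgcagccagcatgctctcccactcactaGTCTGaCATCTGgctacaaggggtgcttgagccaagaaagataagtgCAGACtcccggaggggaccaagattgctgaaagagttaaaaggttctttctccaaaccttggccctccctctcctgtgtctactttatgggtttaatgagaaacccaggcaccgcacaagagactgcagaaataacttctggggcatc
Prelp, chr1:133921402-133921651, minus strand: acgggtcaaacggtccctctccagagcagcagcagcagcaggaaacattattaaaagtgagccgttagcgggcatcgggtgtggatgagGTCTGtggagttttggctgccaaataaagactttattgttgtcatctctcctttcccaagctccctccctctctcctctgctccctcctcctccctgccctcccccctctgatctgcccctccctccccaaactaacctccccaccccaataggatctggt
Bgn, chrX:73483351-73483600, plus strand: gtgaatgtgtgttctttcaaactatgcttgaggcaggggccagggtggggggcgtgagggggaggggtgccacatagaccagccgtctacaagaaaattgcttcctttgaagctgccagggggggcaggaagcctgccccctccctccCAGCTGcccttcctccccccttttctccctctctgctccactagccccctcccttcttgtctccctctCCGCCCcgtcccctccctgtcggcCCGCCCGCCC

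The windows were unlike each other in base composition. GC content was 30.0% in Aspn, 42.0% in Ogn, 51.2% in Fmod, 55.6% in Prelp and 64.4% in Bgn, against a median of 52.4% over 32851 promoter windows of mouse genes. TATAAA was present in Aspn, 207 and 178 bases before the start, and in Ogn, where the matches of both strands overlap 229 and 227 bases before it. It occurs in 12.4% of all windows. GGAATG was found in Ogn only, 86 bases before the start (12.6% of all windows). CAGAC was found in Fmod and Prelp (42.2% of all windows) and GGGCGG 3 times in Bgn (32.7%). No member window held TGANTCA (6.75% of all windows). CANNTG, in 66.2% of all windows, was in every printed window except that of Prelp, and in both windows of Podn. The other 5 motifs were each in the windows of at most 2 of the 6 genes. The Prelp window lies inside the longer RefSeq gene span, so it belongs to one of its starts.

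Other genes of the family were mostly at low levels in these spleens. Of 11 listed, 8 were under 1 FPKM in every library and 3 were tested, of which 1 rose (9.30% of all tested genes rose). Tsku, the gene of tsukushi, a class IV member that binds growth factors, was at 2.87, 2.36 and 3.18 FPKM in PBS and 4.65, 3.78, 3.74 and 4.06 FPKM in sHA-X. Its log2 change was 0.41 (SE 0.10, limma adjusted p = 0.030). Leaving out the first or second PBS library, or sHA-X replicate 1 or sHA-X replicate 4, ended this call (p up to 0.092). Podnl1, a class V relative of Podn, was at 1.71 to 2.20 FPKM in PBS and 1.16 to 2.45 FPKM in sHA-X (adjusted p = 0.50). Nyx, the gene of nyctalopin, a membrane-anchored class IV member known from the retina, went the other way. It had 97, 80 and 101 reads in PBS and 10, 25, 3 and 9 in sHA-X, so the groups were far apart, with means of 0.489 ± 0.051 FPKM (n = 3) and 0.0639 ± 0.0563 FPKM (n = 4), 7.65-fold lower. Nyx was under the filter of 1 FPKM, and in the fit without a filter it fell (log2 change -0.49, limma adjusted p = 0.0035). Chad and Chadl had at most 27 reads in any library.

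Genes that work with these proteoglycans were read from lists, to be set against all tested genes, of which 9.30% rose and 5.03% fell. Of 15 tested collagens and matrix assembly genes, 11 rose and 1 fell, with a median log2 change of 0.75 (all tested genes 0.03). The 3 chains of collagen VI, a network to which decorin and biglycan bind, all rose. Col6a1 went from 8.28 ± 0.96 FPKM (n = 3) to 19.0 ± 2.60 FPKM (n = 4), Col6a2 had a ratio of means of 2.74 and Col6a3 of 1.91. The fibrillar collagen genes Col1a1, Col1a2 and Col3a1 also rose, to between 2.06 and 3.02 times the PBS mean. Col1a1 did not pass when the first or second PBS library was left out (adjusted p up to 0.058), nor Col1a2 when the second was (0.051). Col3a1 did not pass when any PBS library, or sHA-X replicate 3 or sHA-X replicate 4, was left out (up to 0.086). Eln, the elastin gene, fell, 3.19-fold by the ratio of means.

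Of 10 tested proteases that can cleave these proteins, 5 rose and none fell. Mmp3, a stromelysin that cleaves decorin, was at 1.65 to 2.09 FPKM in PBS and 13.7 to 43.7 FPKM in the sHA-X libraries (log2 change 3.21, SE 0.36, limma adjusted p = 0.0041). The gelatinase gene Mmp2 had a ratio of means of 2.76 and the membrane-type metalloproteinase gene Mmp14 of 1.49. Bmp1, which cuts the propeptide from biglycan, went from 6.34 ± 0.40 FPKM (n = 3) to 9.98 ± 1.15 FPKM (n = 4). The aggrecanase genes Adamts1 and Adamts5 did not pass (limma adjusted p = 0.18 and 0.72).

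Of 15 tested receptors, 6 rose (40.0%) and 1 fell, against 9.30% and 5.03% of all tested genes. Tlr2, a receptor for soluble biglycan, went from 6.29 ± 0.84 FPKM (n = 3) to 10.1 ± 1.07 FPKM (n = 4). Tlr4, the other such receptor, was 1.34 times as high, but did not pass when PBS replicate 1 or sHA-X replicate 1 or sHA-X replicate 4 was left out. The co-receptor gene Cd14 was among the 6. P2rx4, a purinergic receptor that biglycan engages, went from 20.6 ± 2.18 FPKM (n = 3) to 34.3 ± 0.99 FPKM (n = 4), and Lrp1, an endocytic receptor for decorin, from 15.2 ± 2.10 to 30.8 ± 2.20 FPKM. Egfr rose from a low level (0.592 ± 0.178 to 1.47 ± 0.30 FPKM), a call lost without PBS replicate 1, and it entered the test only through its sHA-X values. Itga2, a collagen receptor chain that lumican binds, fell, 1.51-fold by the ratio of means (not recomputed under the alternatives). Macrophages also express several of these receptors, and 7 of 8 macrophage marker genes rose, with sums of 1073 to 1376 FPKM in PBS and 2033 to 2222 FPKM in sHA-X. Their part in the receptor values was not tested.

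Of 12 tested growth factor genes, 3 rose and none fell. Tgfb3 went from 2.13 ± 0.25 FPKM (n = 3) to 3.99 ± 0.13 FPKM (n = 4), with a limma adjusted p of 0.0015. Tgfb1, the most abundant of the 3 TGF-beta genes, did not pass (94.1 ± 5.31 and 87.8 ± 8.07 FPKM, adjusted p = 0.45), and Tgfb2 was under 1 FPKM in every library. Bmp2 and Bmp4 were 1.31 and 1.38 times as high, and each call was lost in 5 of the 7 fits that left out 1 library.

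Of 28 tested genes for the sugar chains, 2 rose, 1 fell and 25 did not pass, with a median log2 change of 0.06. Among all tested genes 9.30% rose and 5.03% fell, so this count is near the background. Chst3, a chondroitin 6-O-sulfotransferase, fell from 15.8, 13.4 and 16.7 FPKM in PBS to 7.42, 7.90, 6.91 and 6.70 FPKM in the sHA-X libraries (log2 change -0.98, SE 0.09, limma adjusted p = 0.00058). The lowest PBS library was well above the highest sHA-X library. Chst11, a chondroitin 4-O-sulfotransferase, rose 1.32-fold, a call lost without PBS replicate 1, and Dse, the epimerase that turns chondroitin into dermatan sulfate, from 14.4 ± 1.80 to 18.7 ± 1.21 FPKM, a call lost in 6 of the 7 fits that left out 1 library. The xylosyltransferase genes Xylt1 and Xylt2, which start the chain, did not pass (adjusted p = 0.65 and 0.53).

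Of 16 tested genes of other proteoglycans, 4 rose and 1 fell. The syndecan gene Sdc3 went from 59.5 ± 2.85 FPKM (n = 3) to 99.95 ± 4.65 FPKM (n = 4), and Prg4, the gene of lubricin, from 0.335 ± 0.062 to 2.83 ± 0.77 FPKM. Prg4 entered the test only through its sHA-X values. Gpc1, a glypican gene, was 1.61 times as high. Esm1, the gene of endocan, fell 1.68-fold, a call lost without PBS replicate 1. Hspg2, whose product perlecan binds PRELP, did not pass (adjusted p = 0.52).

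**Figure D4:**
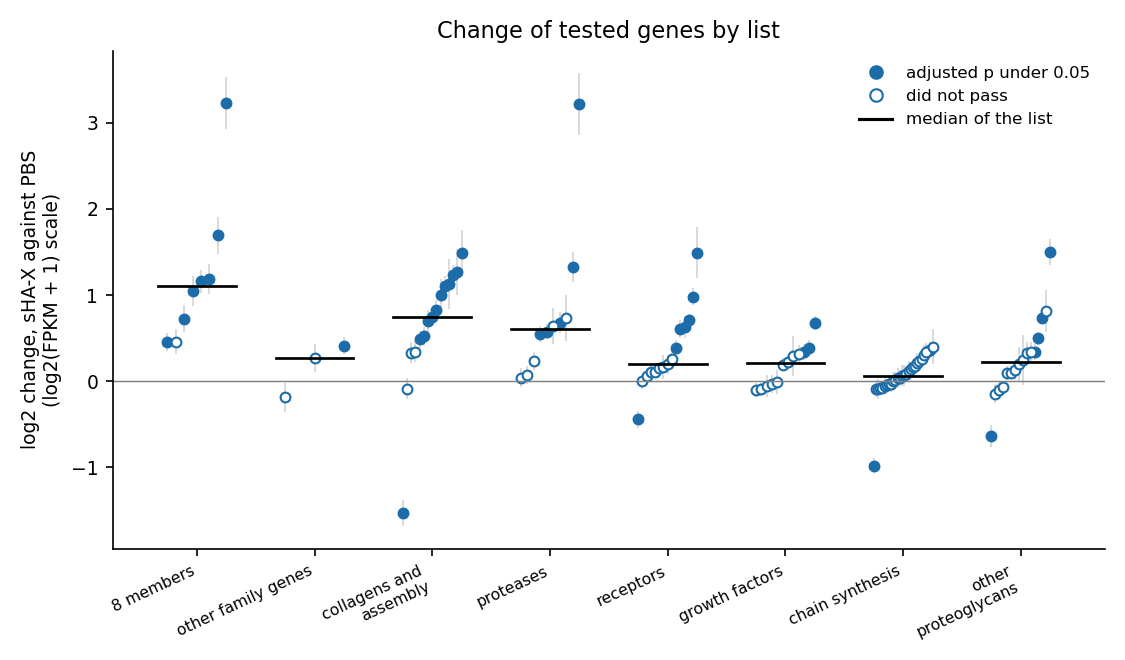
Log2 change (log2(FPKM + 1) scale, sHA-X against PBS) with its SE for each tested gene of the 8 lists, filled where the adjusted p was under 0.05, with a bar at the median of the list. The 8 proteoglycan genes have a median of 1.10, the collagens 0.75 and the chain synthesis genes 0.06.

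The genes with the most similar levels over the 7 libraries, by Pearson's r of log2(FPKM + 1) among 11920 genes, are given as a description, since the group difference alone sets most of such a correlation. Nearest to Lum were Rgs5, Fxyd6 and Itgbl1 (r of 0.997 each). Nearest to Dcn were Pilrb2, Serping1 and Aebp1 (r from 0.994 to 0.996), and nearest to Bgn were Pde8a, Kank2 and Tcn2 (r from 0.990 to 0.992). Other members were among the nearest genes of Fmod (Lum, 0.996), Ogn (Aspn, 0.981) and Aspn (Dcn, 0.990). Fmod also had Lyve1 and Prss23 among its 3, Ogn Prss23 and Nop56, and Aspn Bag3 and Mypop. Prelp was nearest to Cd248, Gsn and Map1lc3a (0.975 to 0.979), of which Cd248 and Gsn are on the adventitial fibroblast list. Among the genes nearest to Podn were Bri3 (0.990) and Tnxb (0.984).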

How the data were processed

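RNA of mouse spleen was sequenced by the submitters as 7 libraries. Their processing notes list the build mm10 and the tools DESeq2, HTSeq, HISAT2 and fastp with R 3.2.0, without their roles. The values the authors deposited, 1 per gene and library, were read as FPKM, since the header names no unit and the values of a gene are whole multiples of a gene-specific step. Whole reads were recovered within 0.02 of a read for each of the 16889 genes detected in 2 or more libraries, as a measure of depth. Values were tested as log2(FPKM + 1), a scale that understates changes of low genes, with limma 3.58.1 (trend, robust) in R 4.3.3, group only, for 11920 genes with a mean of at least 1 FPKM, adjusted by Benjamini-Hochberg. The fit was tried on simulated data with independent noise for each gene. Deviations shared by many genes of a library were not simulated, so that trial does not cover them. No source used here gives the strand setting of the counting.

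The 8 genes, the lists and the tests were chosen with earlier results of these data known. Named were all family genes, 8 partner genes (the TGF-beta and fibrillar collagen genes, Tlr2 and Tlr4), up to 4 called genes per list with the smallest p, and the 3 nearest genes of each member, of which 1 is not reported here. Other genes named beside them were chosen after their values were seen. Single ratios were compared by exact permutation in scipy 1.17.1. Alternatives were other pseudocounts, filters, scalings and weights, a replicate block and left-out libraries. Coordinates are those of RefSeq (GRCm38.p6), matched by NCBI gene identifier, and exon overlaps those of GENCODE (GRCm38).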

Additional observations from a re-analysis of the deposited data

Results flagged for a closer look

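In the 4 sHA-X libraries, 64 family, partner and marker genes were looked at for a library far from the other 3 (Dixon's test at 95%), which chance alone gives in about 1 of 20 genes. It was met by 2. Pdpn, the podoplanin gene of fibroblastic reticular and lymphatic cells, was at 8.04 FPKM (472 reads) in sHA-X replicate 1 against 202 to 234 reads in the other sHA-X libraries. Lum, Dcn, Bgn, Fmod, Ogn and Podn were also highest in that library. Nepn, a family gene listed at 0 in the other libraries, was at 0.073 FPKM in sHA-X replicate 4. With the other 3 values at 0, any level above 0 meets this test, so it says nothing further of Nepn.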

How the results depend on the processing

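Directions of all 8 proteoglycan genes held in all 134 values from the alternatives, and 11 values lost a call and 2 gained one. Among 48 other named genes, 92 of 803 values lost a call and none reversed. Calls of these genes lost without both second libraries were those of Tsku, Tlr4, Col1a2, Dse, Bmp2, Bmp4, Pdpn, Pdgfrb and Rgs5. The number of members called was 7, ranged from 5 to 8 when 1 library was left out, and was 4 without both second libraries and 5 with a filter of a mean of 5 FPKM, which leaves Aspn and Podn untested. Over all genes 1708 were called (1108 higher, 600 lower). Leaving out 1 library gave 716 to 1900 (488 to 1263 higher, 228 to 637 lower) with the lowest total without PBS replicate 1, and 1094 without the first and 1063 without the fourth sHA-X library. Without both second libraries 822 were called (492 higher, 330 lower). Array weights, whose estimation stopped before it converged, gave 5327 (3246 higher, 2081 lower). Quantile normalization gave 938 lower genes, and the share of higher genes among calls was 44.7% there against 64.9%, while 7 members were called and all 8 stayed higher. Same-numbered libraries of the 2 groups did not deviate together (correlations of 0.15, -0.21 and -0.29 for numbers 1 to 3). With the replicate block 348 genes were called (276 higher, 72 lower) and 6 members, with Bgn lost (adjusted p = 0.084). The 8 genes had at least 19 reads in each library, and depth limits the other family genes more, of which Kera, Nepn, Epyc, Optc and Chad had at most 7 where reads were recovered.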

Other observations

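Among large proteoglycans under the filter of 1 FPKM, Vcan, the gene of versican, a hyaluronan-binding chondroitin sulfate proteoglycan of provisional matrix, was at 0.277 ± 0.035 FPKM in PBS (n = 3) and 1.46 ± 0.27 FPKM in sHA-X (n = 4), and was called in the limma fit without a filter (log2 change 0.94, adjusted p = 0.0033). Spock3, a testican gene, was 4.98-fold lower in sHA-X by the ratio of means (log2 change -0.67, adjusted p = 0.022 in the same fit). Both genes were singled out after their values were seen.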
